A study of Mus musculus with 18 samples.

Results

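Ptprc, Lck, Runx3, Ikzf1, Ikzf3, Txk, Skap1, Coro1a, Rac2 and Lcp1 encode regulators of signalling, transcription and the actin cytoskeleton in blood cells. Their mRNA levels were described in mouse small intestinal crypt cells that had been sorted into 3 gates by the brightness of a fluorescent reporter. The genes were listed by name, with earlier results of these data known, so their counts below are no independent evidence. A gene counted as measured where a probe set of the array carried its symbol and no other. Of the 10 genes, 9 were measured, each by 1 probe set, among 19938 genes in all, and Lck was not analysed here.

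The reporter was Fltp-Venus, an allele that makes the Venus fluorescent protein under control of Flattop (Fltp, gene symbol Cfap126), a gene of the Wnt/planar cell polarity pathway. All cells came from C57Bl6/J mice aged 4 months with the genotype FltpZV/+, that is with 1 reporter allele, so the negative gate also consisted of cells from reporter mice. The labels name no treatment. The gates, called negative, low and high by reporter signal, had 2 arrays each, and RNA of 2 animals was pooled for every array. Whether the gates shared animals is not stated. The p-values rest on the spread between the 2 pools of a gate, taken over all 3 gates and drawn toward that of all genes. This spread may be technical. The 12 samples of a second, lineage-tracing line were not analysed here.

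Lymphocytes live among the epithelial cells of the small intestine, and in the mouse many of these intraepithelial lymphocytes carry CD8. In such cells the T cell receptor signals through Src-family and Tec-family kinases, whose activity the phosphatase CD45 sets, and adaptor proteins pass the signal on to integrins and to actin. Ikaros and Runx proteins are DNA-binding regulators of lymphocyte development, and Coronin 1A, Rac2 and L-plastin are the blood cell forms of proteins that shape actin filaments in most cells.

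Values are log2 signal levels, on which a difference of 1 is a doubling, and levels of different genes cannot be compared with each other because probe sets differ in brightness. A level counted as above background where it exceeded 4.23, the 95th percentile of 1203 olfactory, vomeronasal and trace amine receptor genes. Array medians lay between 4.82 and 4.95. The share of genes above background was 61.3% and 62.3% on the negative arrays, 62.7% and 63.0% on the low arrays and 65.4% and 69.4% on the high arrays. Arrays of a gate correlated across genes at 0.981 in the negative, 0.975 in the low and 0.946 in the high gate. Epcam, an epithelial adhesion molecule, lay between 9.40 and 9.98 on the 6 arrays, above background in every gate. Over all genes, low against negative cells gave 681 higher and 507 lower calls, high against negative cells 272 and 667, and high against low cells 202 and 776. These are 3.42% and 2.54%, 1.36% and 3.35%, and 1.01% and 3.89% of all genes. With quantile normalization the last pair of splits became 324 higher and 297 lower, and 326 higher and 616 lower.

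The 9 measured genes were highest in the low gate: for each of them both low arrays lay above all 4 other arrays, a pattern that 11.1% of all genes had. Compared with negative cells, 5 of the 9 genes rose in low cells, where 3.42% of all genes were called higher. These were Ptprc, Runx3, Ikzf3, Txk and Lcp1. Compared with negative cells, 4 of the 9 fell in high cells, where 3.35% of all genes were called lower. These were Ptprc, Ikzf3, Coro1a and Rac2. All 9 fell from low to high cells, where 3.89% of all genes were called lower. Arrays of all 9 genes did not overlap, with low above negative, as in 23% of all genes, and with high below low, as in 20.4%, while 7 had high below negative without overlap, as in 22.4%. The median log2 difference of the 9 genes was 1.49 in low against negative cells, -0.86 in high against negative cells and -2.48 in high against low cells, where the medians of all genes were -0.03, 0.10 and 0.13. A call means an adjusted p under 0.05 over all genes. The 3 comparisons share arrays, so their calls are not independent of one another.

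**Figure D1:**
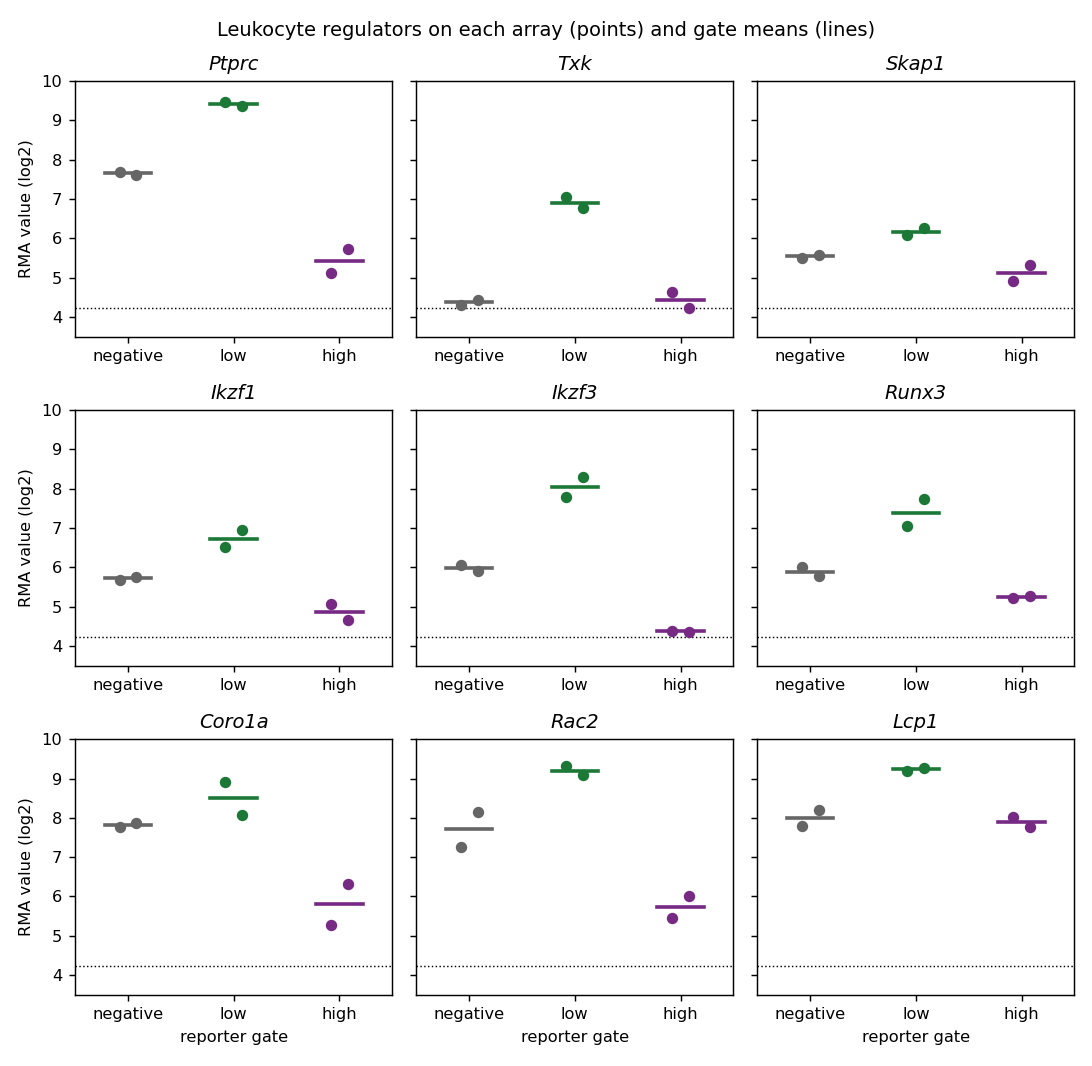
Log2 signal of the 9 measured genes on each of the 6 arrays, by gate; points are arrays, short lines gate means, and the dotted line marks the background level of 4.23. Both low arrays stand above the negative and high arrays in every panel, while Txk and Lcp1 have high arrays at about the level of the negative arrays.

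In 7 of the 9 genes the arrays were ordered low above negative above high without overlap, an order that 3.22% of all genes had. Txk and Lcp1 were the exceptions, since their high and negative arrays overlapped. Pearson correlations over the 6 arrays for the 36 pairs of genes ran from 0.632, between Txk and Coro1a, to 0.985, between Ikzf1 and Ikzf3, with a median of 0.907. All pairs share the same 6 pools. The median gap between the arrays of a gate was 0.13 for the 9 genes in negative, 0.29 in low and 0.40 in high cells, against 0.19, 0.20 and 0.31 over all genes. The widest gaps belonged to Rac2 in negative cells, 0.91, and to Coro1a in low and high cells, 0.84 and 1.06.

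Promoters of the 9 genes were searched for the core words bound by Runx proteins, of which Runx3 is one, and by Ets proteins. RefSeq windows on GRCm38.p6, from 250 bases before to 50 bases after a transcription start, were at hand for 6 of the 9 genes, with 12 windows in all. The Runx word was TGTGGT, read ACCACA on the other strand, and the Ets word was GGAAGT, read ACTTCC on the other strand. In the 12 windows no match overlapped another. The Runx word was in 2 of the 12 windows and in 16.8% of all 32851 windows of the same length, and the Ets word in 5 of the 12 and in 23.8% of all. Both words stood together in 1 of the 12 windows, a second window of Txk, and in 4.2% of all windows. The 4 windows below are the first listed for Ptprc, which fell in high against negative cells, for Txk and Lcp1, whose high and negative arrays overlapped, and for Runx3 itself. They lie at chr1:138175256-138175555 on the minus strand, chr5:72752728-72753027 on the minus strand, chr14:75130873-75131172 on the plus strand and chr4:135120395-135120694 on the plus strand. Capitals mark the words on either strand.
Ptprc: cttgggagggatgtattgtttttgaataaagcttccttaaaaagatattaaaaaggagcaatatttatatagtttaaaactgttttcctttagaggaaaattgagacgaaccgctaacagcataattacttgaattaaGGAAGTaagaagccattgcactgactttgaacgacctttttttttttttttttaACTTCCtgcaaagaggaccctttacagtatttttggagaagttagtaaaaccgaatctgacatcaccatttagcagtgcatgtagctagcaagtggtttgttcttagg
Txk: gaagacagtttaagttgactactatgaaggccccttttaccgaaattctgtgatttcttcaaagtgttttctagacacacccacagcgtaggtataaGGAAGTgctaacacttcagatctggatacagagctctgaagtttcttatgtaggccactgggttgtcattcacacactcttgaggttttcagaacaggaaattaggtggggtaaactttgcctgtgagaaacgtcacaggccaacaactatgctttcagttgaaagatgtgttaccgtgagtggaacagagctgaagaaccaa
Lcp1: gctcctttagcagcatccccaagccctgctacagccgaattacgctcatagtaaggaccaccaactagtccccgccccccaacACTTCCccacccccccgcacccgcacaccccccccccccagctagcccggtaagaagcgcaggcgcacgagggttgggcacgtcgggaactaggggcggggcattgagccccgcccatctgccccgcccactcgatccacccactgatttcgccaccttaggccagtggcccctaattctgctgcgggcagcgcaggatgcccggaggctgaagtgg
Runx3: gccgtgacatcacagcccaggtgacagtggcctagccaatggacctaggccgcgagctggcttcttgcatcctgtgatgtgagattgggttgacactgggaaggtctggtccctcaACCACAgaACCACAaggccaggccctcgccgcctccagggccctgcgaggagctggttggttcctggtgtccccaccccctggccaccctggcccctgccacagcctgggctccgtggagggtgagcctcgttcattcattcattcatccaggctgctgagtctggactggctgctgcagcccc
The Ptprc window held the Ets word beginning 112 bases before the start and again, on the other strand, 58 bases before it. A second Ptprc window overlapped this one and held the second of these matches too. The Txk window held it 153 bases and the Lcp1 window 167 bases before the start. The Runx3 window held the Runx word at 134 and 126 bases before its start, both on the other strand. These windows differed in base composition, with 33.7% G and C for Ptprc, 42.7% for Txk, 66.3% for Lcp1 and 63.7% for Runx3, against a median of 52.7% over all windows. A match says only that these letters are there.

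Ptprc encodes CD45, the receptor-type tyrosine phosphatase on the surface of all nucleated blood cells. Its log2 level was 7.69 and 7.61 on the negative arrays, 9.46 and 9.37 on the low arrays and 5.11 and 5.72 on the high arrays. The gates did not overlap, and the 2 high arrays stood furthest apart. Ptprc rose 3.40-fold in low against negative cells (n = 2 and 2), a log2 difference of 1.77 ± 0.24 (SE, adjusted p = 0.00959). Every SE given here comes from the spread within gates over all 6 arrays, drawn toward that of all genes. It is not the SE of the compared arrays alone. Ptprc fell 4.70-fold in high against negative cells, with a log2 difference of -2.23 ± 0.24 (adjusted p = 0.0111). From low to high cells it fell 16.0-fold, with a log2 difference of -4.00 ± 0.24 and a 95% interval of -4.57 to -3.43 (adjusted p = 0.000633). The rise in low cells lost its call without each of the 4 negative and low arrays in turn (adjusted p = 0.0571 to 0.0909), and the fall against negative cells without either negative array (adjusted p = 0.106 to 0.119). The fall from low to high cells kept its call without any 1 array. In bulk RNA, fewer blood cells in a gate and less of such RNA per cell cannot be told apart.

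**Figure D2:**
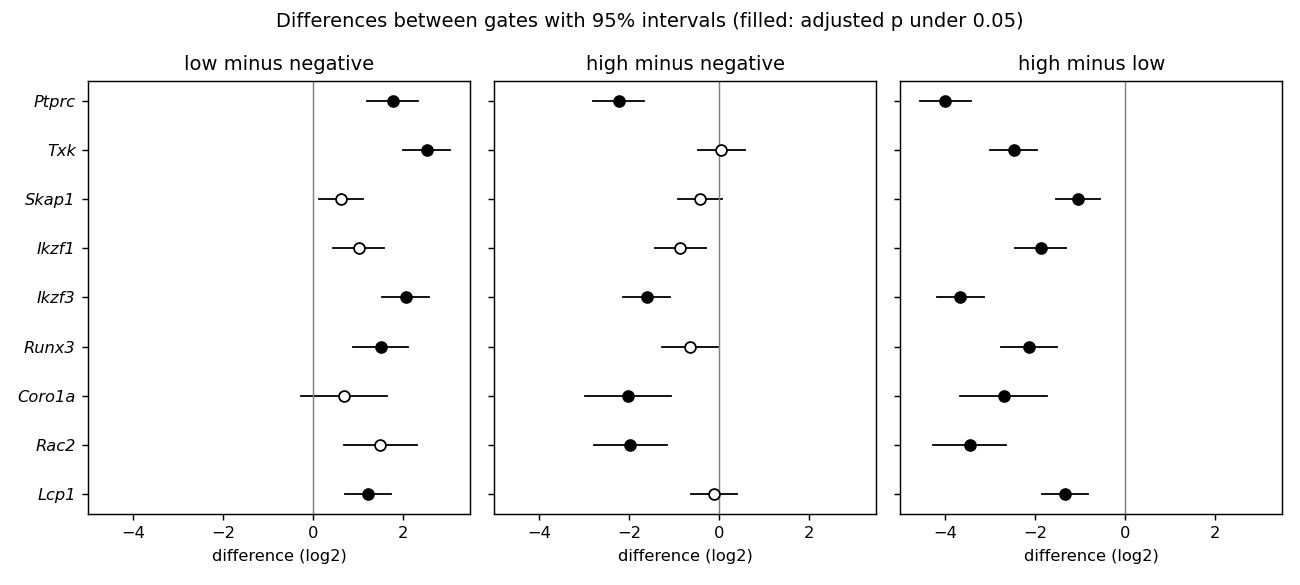
Log2 differences of the 9 genes in low against negative, high against negative and high against low cells, with 95% intervals from limma; filled points have an adjusted p under 0.05. Every gene lies above 0 in low against negative cells and below 0 in high against low cells, while Txk (0.05) and Lcp1 (-0.11) lie at 0 in high against negative cells.

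Txk encodes a Tec-family kinase of T cells that acts downstream of the T cell receptor. Its level was 4.31 and 4.44 on the negative arrays, 7.05 and 6.76 on the low arrays and 4.63 and 4.23 on the high arrays. In negative and high cells Txk was therefore close to the background level, and 1 of the 2 high arrays was not above it. Txk had the largest rise of the 9 genes in low against negative cells, 5.77-fold, with a log2 difference of 2.53 ± 0.22 (adjusted p = 0.00251), and this call held without any 1 array. In high against negative cells it had no call: the log2 difference was 0.05 ± 0.22, with a 95% interval of -0.47 to 0.58 (adjusted p = 0.903). Centring the arrays gave -0.04 and quantile normalization -0.15. With a negative mean of 4.38 against a background of 4.23, a fall of Txk below the negative gate was hardly measurable. From low to high cells Txk fell 5.57-fold (log2 difference -2.48 ± 0.22, adjusted p = 0.00212), a call that also held without any 1 array.

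Skap1 encodes an adaptor that links the T cell receptor to integrin activation. It was at 5.51 and 5.57 on the negative arrays, 6.08 and 6.26 on the low arrays and 4.92 and 5.31 on the high arrays. The gates did not overlap, but the steps between them were the smallest of the 9 genes from negative to low cells and from low to high cells. The log2 difference was 0.63 ± 0.21 in low against negative cells (adjusted p = 0.153) and -0.42 ± 0.21 in high against negative cells (adjusted p = 0.285). Only the fall from low to high cells passed, 2.07-fold, with a log2 difference of -1.05 ± 0.21 (adjusted p = 0.0396). That call was lost without either low array or the first high array (adjusted p = 0.056 to 0.196), and in 4 of the other alternative fits (adjusted p = 0.0546 to 0.0999).

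Among the transcription regulators, Ikzf3 encodes Aiolos and Ikzf1 encodes Ikaros, zinc-finger proteins of the same family, and Runx3 encodes a Runx factor needed for CD8 T cells. Ikzf3 was at 6.05 and 5.92 on the negative arrays, 7.80 and 8.30 on the low arrays and 4.39 and 4.36 on the high arrays. The high arrays were just above background. Ikzf3 rose 4.17-fold in low against negative cells (log2 difference 2.06 ± 0.22, adjusted p = 0.0046) and fell 3.06-fold in high against negative cells (-1.61 ± 0.22, adjusted p = 0.0175). From low to high cells it fell 12.7-fold (-3.67 ± 0.22, adjusted p = 0.000633). Without either negative array the first of these calls was lost (adjusted p = 0.0531 to 0.0546) and so was the second (adjusted p = 0.137 to 0.14), whereas the third held without any 1 array. Ikzf3 and Ptprc were the members called in opposite directions against negative cells, which 0.216% of all genes were.

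Ikzf1 followed the same order with smaller steps. Its arrays read 5.69 and 5.75 in negative, 6.51 and 6.95 in low and 5.07 and 4.65 in high cells, with no overlap between gates. Against negative cells its log2 difference was 1.01 ± 0.24 in low cells (adjusted p = 0.0598) and -0.86 ± 0.24 in high cells (adjusted p = 0.0979), and neither passed. The first did pass when only the arrays of those gates were fitted and with array weights (adjusted p = 0.0205 to 0.0396). Ikzf1 fell 3.66-fold from low to high cells (log2 difference -1.87 ± 0.24, adjusted p = 0.00824), a call lost without the second low array (adjusted p = 0.0552).

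Runx3 was at 6.01 and 5.78 in negative, 7.05 and 7.73 in low and 5.23 and 5.28 in high cells. The low arrays were the most spread, and no gates overlapped. Runx3 rose 2.82-fold in low against negative cells (log2 difference 1.50 ± 0.26, adjusted p = 0.0225), a call lost without either negative array or the second low array (adjusted p = 0.1 to 0.158). In high against negative cells the log2 difference of -0.64 ± 0.26 did not pass (adjusted p = 0.211). From low to high cells Runx3 fell 4.40-fold (log2 difference -2.14 ± 0.26, adjusted p = 0.00708), and that call held without any 1 array. Runx3, Txk and Lcp1 thus rose in low cells, fell from low to high cells and had no call in high against negative cells, a set of calls that 1.89% of all genes had.

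The actin regulators were Coro1a, Rac2 and Lcp1. Coro1a encodes Coronin 1A, an actin-binding protein of blood cells, and was the most spread of the 9 genes. Its level was 7.76 and 7.87 in negative, 8.92 and 8.08 in low and 5.27 and 6.33 in high cells, so the second low array lay closer to the negative arrays than to the first low array. In low against negative cells the log2 difference was 0.69 ± 0.40, with a 95% interval of -0.27 to 1.65 (adjusted p = 0.474). Coro1a fell 4.05-fold in high against negative cells (log2 difference -2.02 ± 0.40, adjusted p = 0.0428) and 6.52-fold from low to high cells (-2.70 ± 0.40, adjusted p = 0.0149). The former call was lost without either negative array or the first high array (adjusted p = 0.0615 to 0.219) and in 4 other alternative fits (0.0519 to 0.109), and the latter without the first low array (adjusted p = 0.0797).

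Rac2 encodes a GTPase of blood cells that drives actin assembly. It read 7.25 and 8.16 in negative, 9.31 and 9.08 in low and 5.45 and 6.00 in high cells. The gates did not overlap although the negative arrays were 0.91 apart. The log2 difference of 1.49 ± 0.34 in low against negative cells missed the threshold (adjusted p = 0.0539), and it passed in 4 alternative fits (adjusted p = 0.0256 to 0.0492). Rac2 fell 3.93-fold in high against negative cells (log2 difference -1.98 ± 0.34, adjusted p = 0.0285), a call lost without either negative array or the first high array (adjusted p = 0.0549 to 0.155) and in 3 other fits (0.053 to 0.065). It fell 11.0-fold from low to high cells (-3.46 ± 0.34, adjusted p = 0.00315), and this call held without any 1 array.

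Lcp1 encodes L-plastin, the actin-bundling plastin of blood cells. Its level was 7.80 and 8.21 in negative, 9.20 and 9.26 in low and 8.01 and 7.78 in high cells, and negative and high arrays overlapped. Lcp1 rose 2.33-fold in low against negative cells (log2 difference 1.22 ± 0.21, adjusted p = 0.0235) and lost that call without each of the 4 arrays in turn (adjusted p = 0.0802 to 0.168). It had no call in high against negative cells, with a log2 difference of -0.11 ± 0.21 and a 95% interval of -0.62 to 0.40 (adjusted p = 0.774). Centring the arrays gave -0.20 and quantile normalization 0.20. It fell 2.52-fold from low to high cells (-1.34 ± 0.21, adjusted p = 0.0197), a call lost without either low array or the second high array (adjusted p = 0.0592 to 0.113). In high against negative cells, then, 5 of the 9 genes had no call. Skap1, Ikzf1 and Runx3 were lower there without overlap, while the arrays of Txk and Lcp1 overlapped, those of Txk close to background and those of Lcp1 at 7.78 or more.

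The genes whose 6 values were most like a member's were found by the smallest distance after each gene was centred on its mean, among 14942 genes above background on at least 1 array. For Ptprc they were Cd8a, a co-receptor chain of T cells, with a distance of 0.324 on the log2 scale, Trgv1, a variable segment of the T cell receptor gamma chain, with 0.388, and Ctsw, a protease of cytotoxic lymphocytes, with 0.390. For Txk they were Esyt1 (0.309), Anxa6 (0.314) and Rgs7 (0.363). This likeness is a description over 6 arrays.

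Other genes of the pathways were counted from lists. The shares of all genes called stand beside the counts of these lists and those below. They were 3.42% higher and 2.54% lower in low against negative cells, and 1.36% and 3.35% in high against negative cells. From low to high cells they were 1.01% higher and 3.89% lower. Of 35 measured genes of proximal antigen receptor signalling besides the members, 6 rose in low against negative cells, 5 fell in high against negative cells and 13 fell from low to high cells. Lcp2, the adaptor SLP-76, rose by 1.50 ± 0.24 (adjusted p = 0.0173), fell by 1.60 ± 0.24 against negative cells in the high gate (adjusted p = 0.0206) and had a log2 difference of -3.11 ± 0.24 from low to high cells (adjusted p = 0.00136). Lat, the membrane scaffold to which SLP-76 is recruited, had a log2 difference of 0.18 ± 0.26 in low against negative cells (adjusted p = 0.847) and fell by 1.80 ± 0.26 in high against negative cells (adjusted p = 0.0185). Ptpn6, the phosphatase SHP-1, rose by 1.22 ± 0.20 in low against negative cells (adjusted p = 0.0171) and fell 3.99-fold from low to high cells (adjusted p = 0.00311). Median log2 differences of this list were 0.64, -0.26 and -0.90 in the order of the comparisons. Leaving out 1 array left 0 to 2 of the 6, 0 to 7 in place of the 5 and 7 to 12 of the 13 genes called, with 0 without either negative array, and array weights gave 12 in place of the 6. Lcp2, Lat and Ptpn6 lost their calls against the negative gate without either negative array, and Lcp2 and Ptpn6 lost theirs in low cells also without either low array.

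Of 36 blood cell cytoskeleton regulator genes besides the members, 12 rose in low against negative cells, 9 fell in high against negative cells and 24 fell from low to high cells, with median log2 differences of 0.89, -0.71 and -1.58. Arhgdib, a GTPase inhibitor of blood cells that binds Rac2, rose by 1.22 ± 0.26 (adjusted p = 0.0433), fell by 2.90 ± 0.26 in high against negative cells (adjusted p = 0.00641) and had a log2 difference of -4.12 ± 0.26 from low to high cells (adjusted p = 0.000711). Dock10, a guanine nucleotide exchange factor, rose by 1.80 ± 0.23 (adjusted p = 0.00809) and had a log2 difference of -3.27 ± 0.23 from low to high cells (adjusted p = 0.000953). Itga4, an integrin chain of leukocytes, rose by 1.82 ± 0.20 (adjusted p = 0.00517), while its log2 difference of -0.46 in high against negative cells did not pass (adjusted p = 0.241). Without 1 array the counts were 0 to 3 in place of the 12, 0 to 11 in place of the 9 and 16 to 21 of the 24, with 0 or 1 without a negative array, and array weights gave 20 in place of the 12. Arhgdib, Dock10 and Itga4 lost their calls against the negative gate without either negative array; in low cells Dock10 lost it also without the second low array and Arhgdib without either low array and with a trended prior or centred arrays (adjusted p = 0.05 to 0.0609). From low to high cells Arhgdib and Dock10 kept theirs without any 1 array.

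The 40 other blood cell transcription regulators moved in both directions: 6 rose and 2 fell in low against negative cells, 3 fell in high against negative cells, and 7 fell and 1 rose from low to high cells. Their median log2 differences were 0.23, -0.14 and -0.35. For the same calls the shares of all genes were 3.42% and 2.54%, 3.35%, and 3.89% and 1.01%. Id2, a partner protein that blocks helix-loop-helix factors, rose by 1.89 ± 0.29 (adjusted p = 0.0149), fell by 2.10 ± 0.29 in high against negative cells (adjusted p = 0.0175) and had a log2 difference of -3.99 ± 0.29 from low to high cells (adjusted p = 0.001). Stat4, which carries interleukin-12 signals, rose by 1.67 ± 0.24 in low cells (adjusted p = 0.012) and had a log2 difference of -2.79 ± 0.24 from low to high cells (adjusted p = 0.00185). Myb, a regulator of proliferating progenitor cells in blood and in crypts, went the other way: it fell by 1.94 ± 0.20 in low against negative cells (adjusted p = 0.00429) and rose by 1.28 ± 0.20 from low to high cells (adjusted p = 0.018). Without 1 array the counts were 0 to 4 in place of the 8, 0 to 5 in place of the 3 and 3 to 8 in place of the 8; 4 other fits gave 1 in place of the 3, and a fit of the compared gates alone 5 in place of the last 8. Id2 and Stat4 lost their rise in low cells without either negative array and without the second low array, Id2 also without the first, and Id2 lost its fall in high against negative cells without either negative array. Myb lost its fall without the second negative array (adjusted p = 0.0527) and its rise without either low array or the second high array (adjusted p = 0.0541 to 0.114) or with those gates fitted alone (adjusted p = 0.0525).

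Markers of T cells and cytotoxic cells, in which the members are known, were followed beside them, and part of the markers moved as the members did. The mean log2 level over 20 T cell receptor complex and intraepithelial lymphocyte genes was 6.33 and 6.66 on the negative, 7.01 and 7.42 on the low and 5.36 and 5.60 on the high arrays. The mean of the 9 members was 6.45 and 6.59, 7.93 and 7.98, and 5.34 and 5.52 in the same order, and that of 17 cytotoxic effector and natural killer genes 6.83 and 7.10, 8.21 and 8.32, and 5.69 and 5.98. Of the 20 T cell genes, 10 rose in low against negative cells, 8 fell in high against negative cells and 10 fell from low to high cells. Cd3e, a chain of the T cell receptor complex, was at 8.60 and 8.94, 10.27 and 10.25, and 7.24 and 7.42, and Cd8a at 8.78 and 8.84, 10.61 and 10.40, and 6.54 and 6.79. Both were called in all 3 comparisons, Cd3e with log2 differences of 1.49, -1.44 and -2.93 and adjusted p of 0.00943, 0.0182 and 0.000844. Cd3d and Cd3g were called in the same directions as Cd3e. Cd8b1, the other chain of CD8, had log2 differences of -0.64, -1.02 and -0.38 and no call (adjusted p = 0.468, 0.175 and 0.547). Cd247, another chain of the receptor complex, had 0.09, -0.05 and -0.14 and no call (adjusted p = 0.923, 0.899 and 0.692). Of the 20, 6 had a lower mean in low than in negative cells, none of them called. Thy1, a surface protein of many T cells, was at 8.0 and 8.21, 6.07 and 7.07, and 6.02 and 6.53, a log2 difference of -1.53 in low against negative cells (adjusted p = 0.0557). Cd6 and Cd5, surface proteins of T cells that adjust receptor signals, had log2 differences of -0.96 (adjusted p = 0.0635) and -0.84 (adjusted p = 0.0998). The low arrays of Thy1, Cd6 and Cd5 lay below the negative arrays without overlap, and their low and high arrays overlapped. Without the second low array the difference of Thy1 was called (adjusted p = 0.0399), and 4 other fits called it for Thy1, 3 for Cd6 and 1 for Cd5 (adjusted p = 0.0207 to 0.0491). Cd4 was near background, at 4.07 and 5.07, 3.87 and 4.44, and 4.30 and 5.25. Of the 17 cytotoxic genes, 7 rose, 8 fell and 12 fell in the 3 comparisons. Without 1 array the T cell counts were 0 to 6, 0 to 6 and 8 to 10 and the cytotoxic counts 0 to 5, 0 to 7 and 10 to 12, and Cd3e and Cd8a lost both calls against the negative gate without either negative array, Cd3e in low cells also without either low array and in high cells with quantile normalization (adjusted p = 0.0536). Quantile normalization left 4 T cell and 2 cytotoxic genes called in high against negative cells, and fitting those gates alone 5 cytotoxic genes. The part of these cells in the members' differences was not tested.

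**Figure D3:**
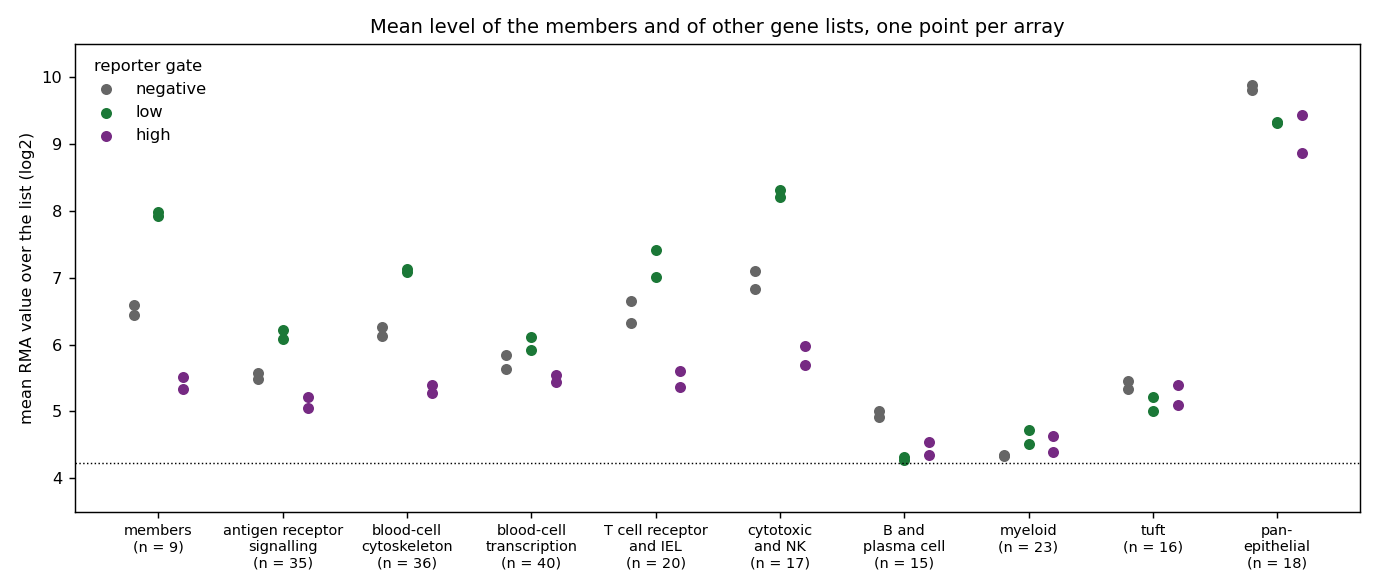
Mean log2 level of the 9 members and of marker lists on each of the 6 arrays, by gate. The members, the T cell genes and the cytotoxic genes are highest on the low and lowest on the high arrays, while the myeloid, tuft and B cell lists stay between 4.27 and 5.45.

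Markers of other blood cells moved in both directions. Among 15 B and plasma cell genes, with means of 4.91 and 5.0 on the negative, 4.27 and 4.32 on the low and 4.35 and 4.54 on the high arrays, 3 fell in low and 2 in high against negative cells, and without 1 array 1 to 2 and 1 were called. Jchain, of antibody-secreting cells, was at 6.93 and 7.04 on the negative arrays and not above background on the other 4, a fall of at least 2.75 on the log2 scale in both gates. Cd79a was above background on the negative arrays alone. Among 23 myeloid genes the means ran from 4.33 to 4.72, and 5 rose in low against negative cells and 3 fell from low to high cells; in high against negative cells limma called 0, with 2 at an unadjusted p under 0.05. Adgre1 was not above background on any array, and Csf1r on 1 low and 1 high array only. Itgax, an integrin chain of dendritic cells that intraepithelial T cells also carry, rose by 1.88 ± 0.25 in low against negative cells (adjusted p = 0.00871), a call lost without the first negative or the second low array. The other 4 that rose in low cells were Lyz2, a lysozyme of myeloid cells, by 1.57 (adjusted p = 0.0293), the complement genes C1qa, by 1.32 (adjusted p = 0.0127), and C1qb, by 1.11 (adjusted p = 0.0246), and Fcgr3, an Fc receptor, by at least 1.0 (adjusted p = 0.0184). Lyz2 and C1qb were also higher in high than in negative cells, unlike the members, by 1.31 and 0.59 without a call (adjusted p = 0.0589 and 0.147). For Lyz2, 2 other fits called it (adjusted p = 0.0385 to 0.0458). Lyz1, a lysozyme of Paneth cells, rose by 1.89 in low and 1.9 in high against negative cells (adjusted p = 0.00606 and 0.0131). Its log2 difference from low to high cells was 0.01 (adjusted p = 0.984). Neither rise of Lyz1 kept its call without the second negative array. Whether the Lyz2 signal came from myeloid or from Paneth cells was not tested. From low to high cells Itgax, C1qa and Fcgr3 fell, with log2 differences of -1.99, -1.09 and -1.01 (adjusted p = 0.00767, 0.0277 and 0.0393), as the members did, and Lyz2 and C1qb had no call. Lyz2, C1qa, C1qb and Fcgr3 lost their rise without either negative array or the second low array, all but Lyz2 also without the first. The falls from low to high cells were lost without the second low array, those of C1qa and Fcgr3 also without the first low or the second high array. Without 1 array 0 to 2 myeloid genes were called in place of the 5, and 0 to 4 in place of the 3. The mast cell marker Cpa3 was not above background on any array, and 3 of 11 mast cell genes were called in each comparison with negative cells. Kit, a growth factor receptor, was at 6.43 and 6.11, 8.38 and 8.31, and 8.94 and 8.55, and rose by 2.07 in low and 2.47 in high cells (adjusted p = 0.00447 and 0.00641). The mast cell proteases Mcpt1 and Mcpt2 fell, Mcpt1 with log2 differences of -3.06 and -3.29 (adjusted p = 0.00959 and 0.0156) and Mcpt2 with -2.92 and -3.57 (adjusted p = 0.00903 and 0.0112). Of 7 innate lymphoid cell genes Kit and Id2 were called against negative cells. Without either negative array each of these lists had 0 to 1 calls. The part of these cells in the members' differences was not tested. For 16 fibroblast, smooth muscle and endothelial genes limma called 0 in each comparison, with 1, 4 and 5 at an unadjusted p under 0.05.

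Genes of epithelial cells were compared in the same way. The means of 18 pan-epithelial genes were 9.81 and 9.88 on the negative, 9.31 and 9.33 on the low and 9.44 and 8.87 on the high arrays, with 1, 2 and 1 genes called lower in the 3 comparisons, and without the first high array 9 and 5 in the last pair. Fitting negative and low cells alone gave 5 in place of the first 1, and without either negative array no call against negative cells was left. Over all genes 2.54%, 3.35% and 3.89% were called lower in the 3 comparisons. Tuft cells are rare chemosensory epithelial cells, some of which carry Ptprc, and the means of 16 tuft cell genes were 5.45 and 5.33, 5.01 and 5.22, and 5.10 and 5.40. Dclk1, their usual marker, was at 5.39 and 4.43, 4.56 and 4.52, and 4.15 and 4.49, with no call. Of the tuft list Cd24a rose against negative cells in both gates, and Plcg2 fell from low to high cells. Against negative cells, 14 of the 16 tuft genes had a log2 difference below 0 in low and 10 in high cells. Cd24a lost its calls without either negative array, in low cells also without either low array, and Plcg2 lost its call without the second low array. All 19 enteroendocrine genes rose in low against negative cells and 18 fell from low to high cells, while 11 of 13 Paneth cell genes rose in high and 10 in low against negative cells. Those calls of the enteroendocrine list numbered 17 to 19 and 15 to 18 without 1 array, and those of the Paneth list 5 to 11 and 7 to 8. The means of the enteroendocrine genes were 5.17 and 4.89 on the negative, 10.56 and 10.36 on the low and 6.33 and 5.9 on the high arrays. Their median log2 differences were 5.72, 1.1 and -4.64. In high against negative cells 2 of the 19 rose, and other fits called 2 to 6. Chga, of this list, had log2 differences of 6.41, 1.55 and -4.86 (adjusted p = 0.000455, 0.0678 and 0.00126). The part of the epithelial, tuft, enteroendocrine and Paneth lists in the members' differences was not tested.

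Relatives of the members, many of them made in most tissues, were read beside them. Of 33 relatives measured, 1 rose and 1 fell in low against negative cells, 7 fell in high against negative cells and 4 fell from low to high cells, and without 1 array 0 to 1, 0 to 6 and 3 to 5 were called. Fits of the compared gates alone and array weights called 6 in low against negative cells in place of these 2, and 4 other fits called 3 or 4 in high against negative cells in place of the 7. Over all genes, 3.42% were called higher and 2.54% lower in low against negative cells, and 1 of 33 each way was near these shares. In high against negative cells 3.35% of all genes were called lower, and from low to high cells 3.89%. Pls1, the plastin of the intestinal brush border, was at 9.52 and 9.31 in negative, 8.62 and 8.24 in low and 8.45 and 7.95 in high cells. Its log2 difference was -0.98 in low against negative cells (adjusted p = 0.0725), where Lcp1 rose, and it fell by 1.22 in high against negative cells (adjusted p = 0.0445), where Lcp1 had no call. Pls3 was above background on 1 low array only. Rac1 had mean levels of 9.98, 9.74 and 9.80 in negative, low and high cells, with log2 differences of -0.25, -0.18 and 0.07 (adjusted p = 0.652, 0.608 and 0.847), and Rac3 had no call. Coro1b, at 9.14 and 9.27, 8.51 and 8.39, and 7.72 and 7.72, fell by 1.49 in high against negative cells (adjusted p = 0.014), as did Coro1c by 2.04 (adjusted p = 0.0447) and Coro2a by 1.44 (adjusted p = 0.0223). Coro2a also fell by 1.50 in low against negative cells (adjusted p = 0.0138), where Coro1a was higher but not called. Coro7 had no call. These calls of Pls1, Coro1b, Coro1c and Coro2a were lost without either negative array, those of Pls1 and Coro2a in high cells also without the second high array, and that of Coro2a in low cells also without either low array. Those of Pls1 and Coro1c in high cells were also lost in 4 and 3 other fits, among them quantile normalization (adjusted p = 0.0576 to 0.101 and 0.0505 to 0.0789).

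**Figure D4:**
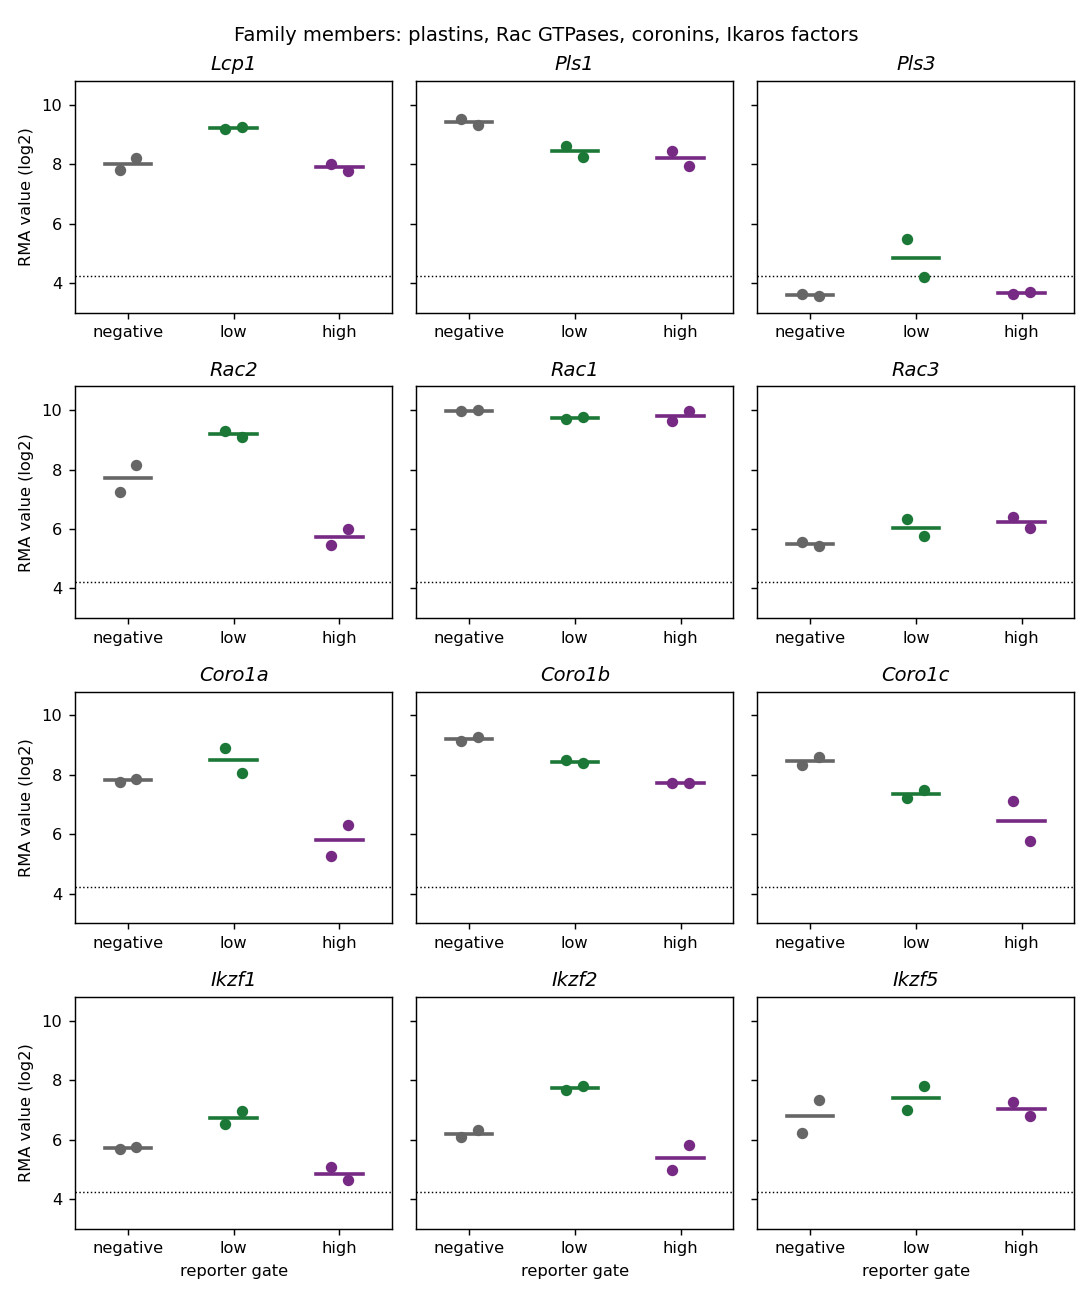
Mean log2 levels of members and their relatives in the negative, low and high gates, as short lines, with points for single arrays. Lcp1, Rac2 and Coro1a are highest in the low gate, whereas Pls1 and Coro1b are highest in the negative gate and Rac1 is level within 0.25.

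Other relatives are used by blood cells too. Ikzf2, which encodes Helios of the Ikaros family, was at 6.08 and 6.32 in negative, 7.67 and 7.79 in low and 4.97 and 5.81 in high cells. It rose by 1.53 ± 0.29 in low against negative cells (adjusted p = 0.0311) and had a log2 difference of -2.34 ± 0.29 from low to high cells (adjusted p = 0.00788). Its rise was lost without each of the 4 arrays in turn (adjusted p = 0.117 to 0.201) and with quantile normalization (0.052), and its fall without the second low array (adjusted p = 0.0555). Fyn, the Src-family relative of Lck, was at 6.52 and 6.29, 7.33 and 7.72, and 5.05 and 4.37. It fell by 1.70 ± 0.28 in high against negative cells (adjusted p = 0.0254) and had a log2 difference of -2.82 ± 0.28 from low to high cells (adjusted p = 0.00324), while 1.13 ± 0.28 in low against negative cells did not pass (adjusted p = 0.0695). The first of these calls was lost without either negative array or the second high array. Tec, a relative of Txk, was not above background in high cells and fell from low to high cells by at least 2.14 (adjusted p = 0.00758). Tec also fell in high against negative cells by at least 1.13 (adjusted p = 0.0471), lost without each of the 4 arrays in turn and in 4 other fits (adjusted p = 0.0528 to 0.0705). Btk, which B and myeloid cells use, was not above background on any array. Skap2 fell by 1.08 from low to high cells (adjusted p = 0.0458), a call lost without each of the 4 arrays and in 6 other fits (adjusted p = 0.0509 to 0.102). Ikzf4, Ikzf5, Runx1, Yes1 and Cbfb, the partner of Runx proteins, had no call.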

How the data were processed

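The deposited log2 values were made by the authors from Affymetrix arrays. The submitters' processing notes name RMA and the program Affymetrix Expression Console, version 1.3.0.187; other settings are not given here. RNA had been extracted with a column kit and amplified, per the labels' protocols. Of 35556 probe sets, 21789 carried exactly 1 symbol in the platform annotation, and 21698 of these matched the GRCm38.p6 gene table. The brightest probe set stood for a gene. All 19938 genes were fitted with limma 3.58.1 in R 4.3.3 (lmFit and eBayes, 3 group means, 6 arrays, 3 residual degrees of freedom, two-sided) with Benjamini-Hochberg adjustment, and tested on simulated data. A level not above background was set to 4.23 for a change of at least that size. The number of arrays limits precision.

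The members and lists were chosen with earlier results of these data known, so neither their counts nor their directions are independent evidence. The lists hold markers of other cell types and the members' pathways and relatives. From each list up to 3 called genes with the smallest p were eligible to be named, with all close relatives and a set of defining markers; Ptprc and members not lower in high than in negative cells had their 3 most like genes named. Lat, Arhgdib and Itga4 are also described outside the comparison that named them. Cd3d, Cd4, Cd5, Cd6, Cd8b1, Cd247, Thy1, Lyz2 and C1qb were picked once their values had been seen. Alternatives covered the prior, scaling, weights, filters, probe sets, thresholds, a replicate block and leaving out each array. No list or gene set test was run.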

Additional observations from a re-analysis of the deposited data

Results flagged for a closer look

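Ptprc and Ikzf3 were called in opposite directions against the negative gate, higher in low and lower in high cells, and the direct comparison of high with low cells was called as well. For Ptprc that log2 difference was -4.00 (adjusted p = 0.000633), and for Ikzf3 it was -3.67 (adjusted p = 0.000633). With 2 arrays in each gate, no array could be tested for standing apart.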

How the results depend on the processing

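Over the 9 members, the 3 comparisons and the alternatives, 372 results stayed on their side of the threshold, 51 lost a call and 9 gained one; no called value changed sign. Of 5 members called in low against negative cells, a threshold of 0.01 left 3, and leaving out 1 array left 1 to 3. Of 4 called in high against negative cells, fits of those gates alone, quantile normalization and array weights each left 2, and a threshold of 0.01 left 0, while leaving out 1 array gave 0 to 4. Of 9 called in high against low cells, leaving out 1 array left 6 to 8. A threshold of 0.1 gave 7, 5 and 9 in the same order. Part of the 372 was set in advance. Each member had 1 probe set, so the probe set alternatives could not change its log2 differences. The threshold of 0.1 could lose no call, and that of 0.01 could gain none. Array weights gave 2150 calls over all genes in low against negative cells in place of 1188, and 620 and 607 in the other comparisons in place of 939 and 978; fits of the gates compared alone gave 561 and 499 there, and 1761 in the first. Over all genes a threshold of 0.01 gave 353, 61 and 319 calls and 0.1 gave 1914, 1817 and 1771, and quantile normalization gave 621 in high against negative cells. Without the first or the second low array, 565 and 417 genes differed between low and negative cells, and 390 and 381 between high and low cells. Without the first high array, 1919 differed between high and negative cells, and 1739 between high and low cells. Without the first or the second negative array, 187 and 197 genes were called in low and 15 and 13 in high against negative cells. Why these values moved was not tested, beyond the loss of an array. Array number and closeness to background, as for Txk, limit the rest.

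Replicate numbers were not taken as pairs: deviations of same-numbered arrays correlated at 0.1, 0.1 and 0.08 between gates, and the labels name no shared animals. With the replicate number as a block, 6, 3 and 9 members were called, and 1298, 1065 and 965 genes.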
